A study of Mus musculus with 8 samples.

Results

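The 9 genes described here write, erase and read DNA methylation, and were followed through the transcriptome of newborn mouse heart muscle cells. They are the DNA methyltransferase genes Dnmt1, Dnmt3a and Dnmt3b, the Dnmt1 recruiter Uhrf1, the dioxygenase genes Tet1, Tet2 and Tet3, and the methyl-CpG-binding protein genes Mbd2 and Mbd3. They were chosen by name for their known roles, as 9 of the 48440 entries of the deposited count table. All 9 passed the filter on low counts, which kept 13771 genes for testing. The study profiled RNA of purified cardiomyocytes from untreated C57BL6/J pups on postnatal day 2 in 8 libraries. Each of 4 litters gave a male and a female heart, so that sex (4 libraries each) and litter (2 libraries each) can both be compared. The labels name no treatment, transgene or mutation, and give the litter of each heart but not the day of cell isolation or the sequencing run. Litter and anything handled litter by litter therefore cannot be told apart.

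Methylation of cytosine in CpG pairs is copied after DNA replication by DNMT1, which UHRF1 brings to freshly replicated, half-methylated sites. DNMT3A and DNMT3B place methyl groups on unmethylated sites, TET1, TET2 and TET3 oxidise the methyl group as the first step of its removal, and MBD2 and MBD3 belong to alternative forms of the NuRD chromatin remodelling complex. In the days after birth mouse cardiomyocytes leave the cell cycle, and their DNA methylation pattern is known to be remodelled over the same weeks.

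Total counts ran from 14226342 to 24910243 per library, the lowest in the female of litter 3, and levels are given as CPM, counts relative to the TMM-scaled library total. X- and Y-linked transcripts fitted the labelled sex in all 8 libraries. All 10 genes of a cardiomyocyte marker list were tested, and their summed level was 62910 to 84240 CPM, against 33.1 to 251 CPM for 10 fibroblast, 18.6 to 167 CPM for 10 endothelial and 1.52 to 2.90 CPM for 8 macrophage markers, of which 1 was at 0 in every library. In bulk RNA, fewer cells of a type and less RNA per cell cannot be told apart. Mitochondrial transcripts took 13.4% to 15.2% of counts in 7 libraries and 18.5% in the male of litter 4.

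Scaled to the length of the longest annotated transcript, the 9 genes spanned a wide range of levels. The reader genes were highest, with Mbd3 at 46.7 ± 5.27 and Mbd2 at 32.1 ± 2.12 CPM per kb (SD, n = 8). Dnmt3a followed at 20.7 ± 1.93 and Tet2 at 14.6 ± 1.87 CPM per kb. In the middle of the order lay Dnmt1 at 8.84 ± 2.24 and Tet3 at 8.10 ± 1.26 CPM per kb. The order of these 2 genes was not tested, and Dnmt1 was the higher one in 5 of 8 libraries. Tet3 was higher in the male and female of litter 3 (9.70 and 9.49 against 5.48 and 6.16 CPM per kb). It was also slightly higher in the male of litter 2. Uhrf1, at 5.09 ± 1.95 CPM per kb, and Tet1, at 4.89 ± 0.715 CPM per kb, likewise traded places. Uhrf1 was higher in 5 of 8, and Tet1 in the same libraries as Tet3. Tet3 and Uhrf1 had overlapping ranges, as did Dnmt3a and Tet2, although the gene named first was higher in 8 of 8 libraries in both pairs. Dnmt3b stood last at 0.557 ± 0.149 CPM per kb, and its 8 libraries lay below every library of the other genes. With the union of all annotated exons as the length, Uhrf1 and Tet1 changed places and the other 7 ranks did not. That length is longer and lowered the level of all 9 genes. The drop exceeded the SD for Mbd3 (to 39.0), Mbd2 (to 19.5), Dnmt3a (to 12.04), Tet2 (to 7.91) and Tet3 (to 5.29 CPM per kb).

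**Figure D1:**
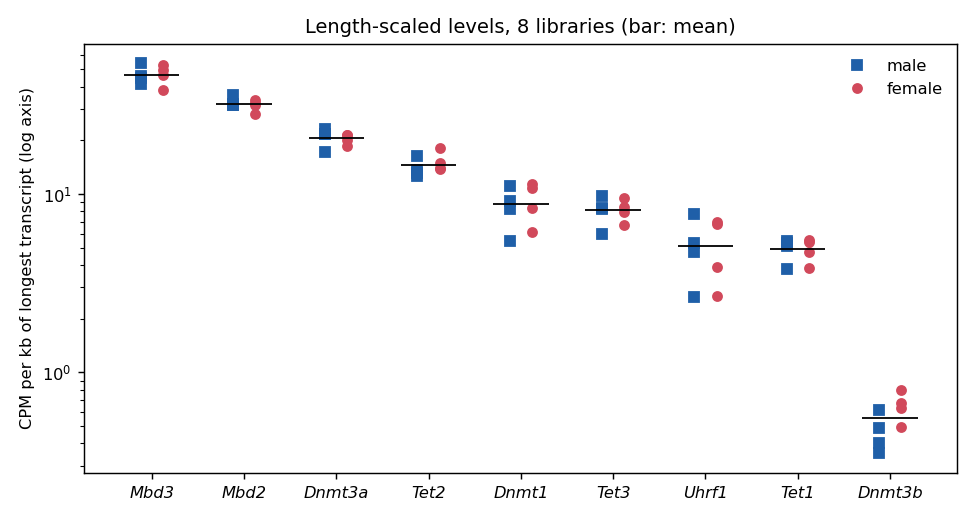
Length-scaled level of each gene (CPM per kb of the longest transcript, log axis) in the 4 male (squares) and 4 female (circles) libraries, with the mean of 8 as a bar. Mbd3 and Mbd2 stand apart at the top, Dnmt3b stands apart at the bottom at 0.557 CPM per kb, and the genes between them overlap with a neighbour.

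Within families the composition was uneven. Of the length-scaled total of the methyltransferase genes, Dnmt3a made up 69.0% on average (64.0% to 78.9% over the 8 libraries), Dnmt1 29.1% (19.9% to 34.1%) and Dnmt3b 1.86% (1.27% to 2.93%). Dnmt3a thus exceeded its partner in de novo methylation, Dnmt3b, by a mean factor of 39.7, from 25.3 in the female to 62.0 in the male of litter 3. With the union of exons as the length the mean factor was 27.3 (17.4 to 42.6). The low end of that pair rests on few reads, since Dnmt3b had 31 to 66 counts per library. Of the length-scaled total of the Tet genes, Tet2 made up 52.9% (49.4% to 57.0%), Tet3 29.3% (26.9% to 31.4%) and Tet1 17.8% (14.5% to 20.3%). Mbd3 was above Mbd2 in 8 of 8 libraries, by a mean factor of 1.45 on the length-scaled level (1.21 to 1.65). This factor and the family shares used the longest transcript and depend on that choice. By the union of exons, mean levels were 39.0 for Mbd3 and 19.5 CPM per kb for Mbd2. Tet2, Tet3 and Tet1 then stood at 7.91, 5.29 and 4.55, and Dnmt3a and Dnmt1 at 12.04 and 7.03 CPM per kb.

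Most of the 9 genes differed between litters. In edgeR's quasi-likelihood test of the 4 litters together, with sex in the model and Benjamini-Hochberg adjustment, 7 of 9 genes passed an adjusted p of 0.05, against 32.1% of all 13771 genes. The range between the highest and the lowest litter had a median of 0.41 (log2) over the 9 genes and of 0.37 over all genes. Dnmt1, Uhrf1, Dnmt3a, Tet1, Tet2, Tet3 and Mbd3 passed, while Dnmt3b and Mbd2 did not. Each litter was then set against the mean of the other 3, in 4 contrasts that share libraries and are not independent. The p-values set litter differences against the spread between hearts of a litter. That spread has 3 residual degrees of freedom per gene and is moderated by edgeR across genes. The labels do not say which hearts were handled together, so the p-values do not cover differences in handling.

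**Figure D2:**
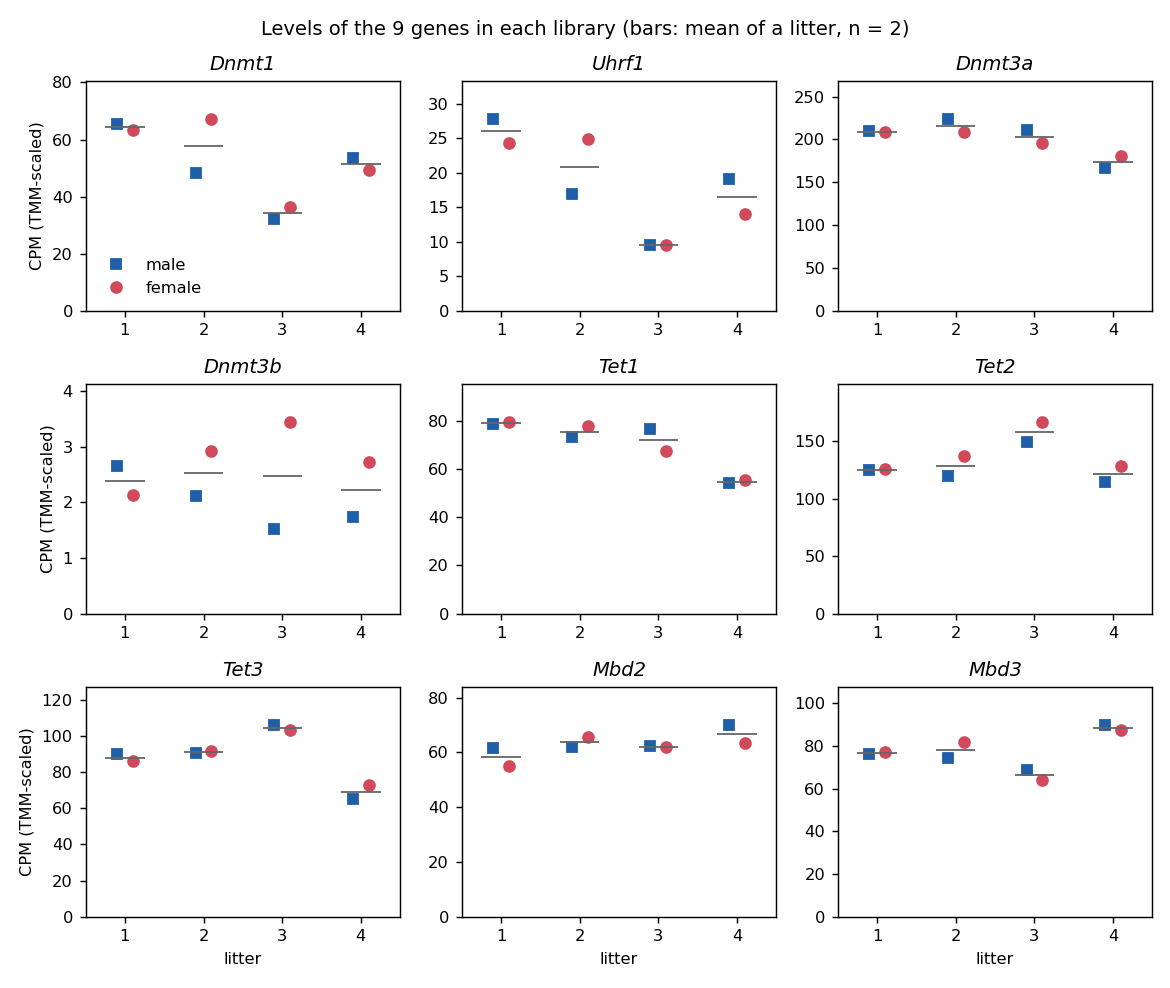
Level of each gene (TMM-scaled CPM, linear axis from 0) by litter, with males as squares, females as circles and the litter mean (n = 2) as a bar. Dnmt1 and Uhrf1 are lowest in litter 3, Tet2 and Tet3 highest there, and Tet1 and Tet3 lowest in litter 4.

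The maintenance pair Dnmt1 and Uhrf1 moved together and had the widest called differences of the 9 genes. Dnmt1, which copies methylation onto the new DNA strand, had 65.5, 48.1, 32.2 and 53.4 CPM in the males of litters 1 to 4 and 63.3, 67.1, 36.2 and 49.2 CPM in the females. Both libraries of litter 3 lay below all 6 others. Dnmt1 differed between litters with a range of 0.92 (log2, edgeR adjusted p = 0.00135), and the highest library exceeded the lowest 2.09-fold. It was lower in litter 3 than in the mean of the other 3 by a log2 difference of -0.75 (SE 0.11, edgeR adjusted p = 0.00038) and higher in litter 1 by 0.47 (SE 0.10, edgeR adjusted p = 0.008).

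Uhrf1, whose product reads half-methylated CpG and recruits DNMT1, showed the same order of litters with a larger spread. Its level was 27.7, 16.9, 9.54 and 19.0 CPM in the males of litters 1 to 4 and 24.3, 24.9, 9.56 and 14.01 CPM in the females. The litter 3 values were again the lowest of all 8, and the highest library exceeded the lowest 2.91-fold. The litter range was 1.45 (log2, edgeR adjusted p = 0.00116), with litter 3 at -1.12 (SE 0.17, adjusted p = 0.000557) and litter 1 at 0.81 (SE 0.14, adjusted p = 0.00321) against the other 3 litters. Per kb, the ratio of Uhrf1 to Dnmt1 averaged 0.559, from 0.433 in the female of litter 3 to 0.693 in the male of litter 1. In litter 2 the male lay below the female in both genes, and neither gene passed there (edgeR adjusted p = 0.212 for Dnmt1 and 0.187 for Uhrf1), but without the male of litter 2 both did (0.0307 and 0.0134), and without the female both stood near 0 (-0.01 and -0.03). Without the male of litter 1, the litter 1 difference no longer passed for Dnmt1 (0.36, adjusted p = 0.206) or Uhrf1 (0.68, adjusted p = 0.102), and without litter 3 the litter test gave 0.172 for Dnmt1 and 0.0522 for Uhrf1. Of the 100-base windows of the Uhrf1 transcript, 7.06% also occur in Gm5648.

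Genes of DNA replication moved with this pair. Of an S phase list of 24 genes, 22 passed the litter test, 20 were higher in litter 1 and 21 were lower in litter 3, where the list median was -0.78 (log2) against 0.00 for all genes. The S phase list sums ran from 332 to 356 CPM in litter 3 and from 463 to 738 CPM in the other litters. Of 18 genes of G2 phase and mitosis, 18 passed, with 18 higher in litter 1 (median 1.31) and 18 lower in litter 3 (median -1.83). Over all genes, 7.86% were higher in litter 1 and 14.8% lower in litter 3. Their summed level was 105.5 and 154 CPM in the male and female of litter 3, and 292 to 680.1 CPM elsewhere. Mki67, the proliferation marker Ki-67, had a litter mean of 118 CPM in litter 1 and 26.6 CPM in litter 3. On a likeness measure taken across all 8 libraries, the root mean square difference of log2 CPM after centring each gene, the 3 genes nearest to Dnmt1 among 13770 were Pold1 (0.0797), Chaf1a (0.0922) and Tk1 (0.0989). The 3 nearest to Uhrf1 were Pole (0.0884), Cdc6 (0.0954) and Clspn (0.0997). Pold1 and Pole encode catalytic subunits of the replicative DNA polymerases, Chaf1a a subunit of chromatin assembly factor 1, and Cdc6 a loader of the replicative helicase. Chaf1a and Cdc6 are also on the S phase list.

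**Figure D3:**
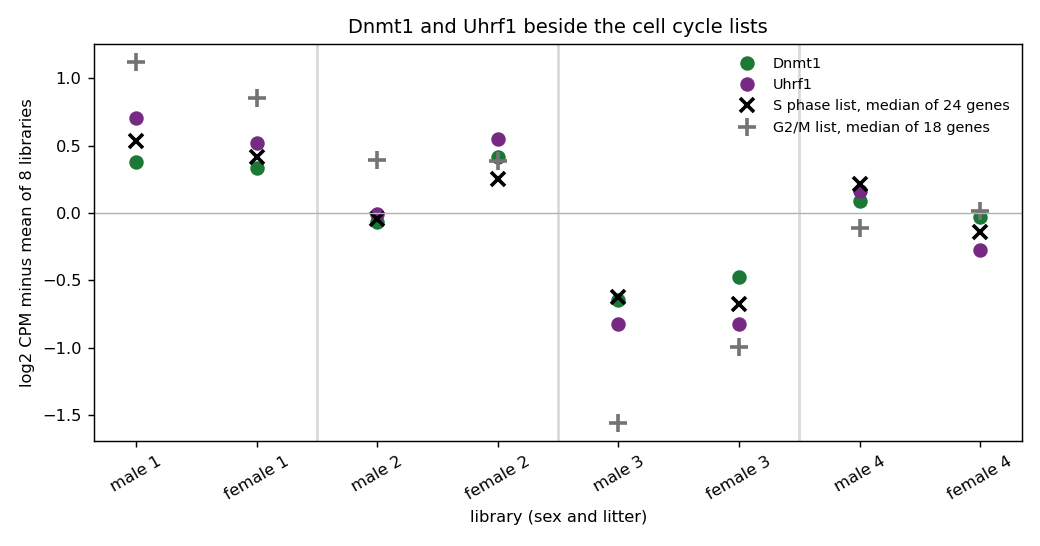
Log2 CPM minus the mean of 8 libraries for Dnmt1 and Uhrf1 (circles) and the medians of the S phase list (24 genes, x) and the G2/M list (18 genes, +), by library. All 4 are above 0 in litter 1 and below 0 in litter 3, and the G2/M list spans the widest range.

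Markers of several other cell types were also low in litter 3, and erythroid markers were not. Of all genes, 14.8% were called lower and 13.6% higher in litter 3. Of the fibroblast markers 8 of 10 were lower there, with sums of 53.7 and 33.1 CPM in its male and female against 112.5 to 251 CPM in the other litters. Endothelial markers were lower for 7 of 10, with sums of 20.0 and 21.0 CPM against 18.6 to 167 CPM. Mural markers were lower for 5 of 8, with sums of 920.0 and 897 CPM against 1337 to 1515 CPM, and no marker of these 3 lists was at 0 in any library. Most of the mural sum was Acta2 and Abcc9. Acta2 had means of 831, 848, 356 and 966 CPM in litters 1 to 4, and the low sum followed it. Abcc9 (478.5 CPM) and Cspg4 (69.4 CPM) were not called lower in litter 3. In the cardiomyocyte list 4 of 10 genes were lower and 1 was higher in litter 3, with sums of 62910 and 64570 CPM against 73150 to 84240 CPM. Of 5 tested erythroid markers, 2 were higher in litter 3 (list median 0.95), and the list summed to 528 CPM in the male of litter 3 and to 97.6 to 243 CPM in the 7 other libraries. In litter 4, 8 of 10 fibroblast markers were higher (median 0.71), with sums of 238 and 112.5 CPM in its male and female. There 2 of 8 mural markers were higher and 1 lower, against 4.71% and 5.8% of all genes. In litter 2, 10 of 10 endothelial markers (median 2.14), 7 of 10 fibroblast and 4 of 8 mural markers were higher, against 3.3% of all genes. In litter 1, 3 of 10 fibroblast markers (median 0.36) and 1 of 8 mural markers were higher, 1 mural marker was lower, and 0 endothelial markers were called. Cardiomyocyte markers were 2 higher and 1 lower in litter 1, and 4 higher and 2 lower in litter 4. The part of these markers, and of the cell cycle genes, in the litter differences of the 9 genes was not tested.

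Promoter sequence is shown for Dnmt1 and Uhrf1 because these 2 members moved together with replication genes, many of which are known targets of E2F factors. Windows of 300 bases, from 250 before to 50 after an annotated start, came from RefSeq on GRCm38.p6, and 8 of the 9 genes matched an entry. The windows were searched on both strands for the E2F words TTTCCCGC, TTTCGCGC, TTTGCCGC and TTTGGCGC, which 2.26% of 32851 windows hold. Among the 8 matched genes, Dnmt1 and Uhrf1 had such a word in at least 1 window, as did 2.60% of 27025 genes with a window. The Dnmt1 window, chr9:20952574-20952873 on the minus strand, holds 2 words, and the Uhrf1 window, chr17:56304063-56304362 on the plus strand, holds 1. Capitals mark the E2F words, and the letters run 5′ to 3′ along the strand of the gene.
Dnmt1: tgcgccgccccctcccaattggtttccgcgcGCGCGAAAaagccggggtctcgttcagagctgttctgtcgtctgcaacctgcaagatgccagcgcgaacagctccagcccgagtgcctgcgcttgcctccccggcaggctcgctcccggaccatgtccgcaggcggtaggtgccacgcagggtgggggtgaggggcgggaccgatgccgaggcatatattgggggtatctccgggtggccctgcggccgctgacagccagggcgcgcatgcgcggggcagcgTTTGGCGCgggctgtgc
Uhrf1: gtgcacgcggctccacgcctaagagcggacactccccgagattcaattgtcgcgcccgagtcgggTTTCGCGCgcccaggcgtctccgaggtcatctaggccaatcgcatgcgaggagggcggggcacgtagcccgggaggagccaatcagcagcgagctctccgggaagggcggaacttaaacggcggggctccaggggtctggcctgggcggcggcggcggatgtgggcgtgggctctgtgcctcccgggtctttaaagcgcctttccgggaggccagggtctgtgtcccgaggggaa

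The Dnmt1 window has TTTCGCGC in its reverse form, GCGCGAAA, at position -219 from the start and TTTGGCGC at 34. This window is 1 of 3 for Dnmt1 and lies inside the annotated gene (chr9:20907209-20959888 in GENCODE M21), so counts per gene do not show which start was used. The Uhrf1 window, 1 of 2 in that gene (chr17:56303321-56323486), has TTTCGCGC at -185. Each window holds 33 CpG pairs, against a median of 7 over all windows. Another 3 words were searched on both strands, TTTGAA for the cell cycle element CHR, CCAAT for the box of that name, and GGGCGG for the GC box, which 17.9%, 37.4% and 35.7% of windows hold. In the Dnmt1 window CCAAT occurs 3 times on either strand, with 2 of the occurrences overlapping each other, and in the Uhrf1 window it occurs 2 times. TTTGAA occurs 0 times in both windows. GGGCGG occurs 2 times in the Dnmt1 and 3 times in the Uhrf1 window. An E2F word stood in a window of 9 of 22 S phase genes (40.9%), 1 of 15 G2/M genes, and of Hells and Cdca7 among 11 partners of methylation maintenance. It stood in none of 13 demethylation partners, 6 other readers and 10 NuRD genes with a window. A match of letters is a description and not a binding site.

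Of the de novo methyltransferase genes, Dnmt3a had its lowest values in litter 4 and not in litter 3. It had 209, 223, 211 and 166 CPM in the males of litters 1 to 4 and 209, 208, 195 and 180.3 CPM in the females. Both libraries of litter 4 were the lowest, and the other 6 lay close together. The litter range was 0.32 (log2, edgeR adjusted p = 0.0274), and litter 4 was lower than the other 3 by a log2 difference of -0.27 (SE 0.06, edgeR adjusted p = 0.0205). In litter 3, where Dnmt1 was lowest, Dnmt3a stood at 0.03 (SE 0.06, adjusted p = 0.730). The length-scaled ratio of Dnmt3a to Dnmt1 was highest in litter 3, at 3.97 in the male and 3.27 in the female, against 1.88 to 2.81 in the other 6 libraries. The litter call for Dnmt3a did not hold without 1 of 4 single libraries, namely male 1 (named by litter, adjusted p = 0.0669), female 1 (0.0722), male 2 (0.0589) or male 4 (0.204). The litter 4 difference was not called without male 1 (-0.275), female 1 (-0.266) or male 4 (-0.18). Only without male 4 was it clearly smaller than with all libraries. After the correction for length and GC content described with the litter 4 differences, neither passed (adjusted p = 0.431 for the range and 0.318 for litter 4). By the same likeness measure, the gene nearest to Dnmt3a was Mllt4 (0.0256).

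Dnmt3b, the de novo enzyme best known from the early embryo, had 2.65, 2.12, 1.52 and 1.73 CPM in males and 2.14, 2.92, 3.44 and 2.73 CPM in females of litters 1 to 4. The highest and the lowest library both belong to litter 3. Its litter range was 0.18 (log2, edgeR adjusted p = 0.960). Dnmt3b shares 5.71% of its 100-base windows with Dnmt3c, a near copy, so a small part of its reads is uncertain. Their catalytically inactive partner Dnmt3l had 0 to 2 counts per library and was not tested.

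The Tet genes split between litters 3 and 4. Tet1 had 78.5, 73.1, 76.6 and 54.3 CPM in the males of litters 1 to 4 and 79.3, 77.7, 67.6 and 55.2 CPM in the females. Litter 4 lay below all other libraries, by a log2 difference of -0.46 (SE 0.07, edgeR adjusted p = 0.00399), and the litter range was 0.53 (edgeR adjusted p = 0.00276). After a correction for transcript length and GC content neither passed (-0.19, adjusted p = 0.140, and range 0.23, adjusted p = 0.156). Tet1 was also higher in litter 1 by 0.24 (SE 0.07, edgeR adjusted p = 0.0332). That small difference fell to 0.11 with that correction (edgeR adjusted p = 0.282). Its call was also lost in 4 leave-outs of a single library, though its size changed little. It was 0.26 without male 1, 0.22 without female 1, 0.22 without male 2 and 0.21 without female 3.

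Tet2, the most abundant Tet gene per kb, was highest in litter 3 instead. Males of litters 1 to 4 had 124.8, 119.9, 149.9 and 115 CPM of Tet2, and females had 126, 137, 167 and 128.5 CPM. Both litter 3 libraries lay above the 6 others, by 0.34 (log2, SE 0.06, edgeR adjusted p = 0.00147), with a litter range of 0.38 (edgeR adjusted p = 0.00675). Without the female of litter 3 the litter test gave an adjusted p of 0.0679 for Tet2, and without litter 3 as a whole its range was 0.08 (adjusted p = 0.760). Tet2 stood at -0.17 in litter 4 (SE 0.06, adjusted p = 0.0969), which passed with library size as the only scaling (-0.24, adjusted p = 0.0228) and turned to 0.04 (adjusted p = 0.738) with the correction for length and GC content.

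Tet3, the form of the gene family that is known to act in the zygote, combined both patterns. It had 89.9, 90.5, 105.8 and 65.4 CPM in males and 86.2, 91.8, 103.5 and 73.1 CPM in females. The litter 3 pair was the highest and the litter 4 pair the lowest, and neither pair overlapped the 4 libraries between them. Tet3 was higher in litter 3 by 0.35 (log2, SE 0.06, edgeR adjusted p = 0.00187) and lower in litter 4 by a log2 difference of -0.45 (SE 0.07, edgeR adjusted p = 0.00374). Its litter range was 0.60 (edgeR adjusted p = 0.00138). Tet3 kept a litter call in every setting run, with adjusted p-values under 0.05 without any 1 library and without any 1 litter. The gene most like Tet1 by the same likeness measure was Tead1 (0.0403), the one most like Tet2 was Zbtb10 (0.0283), and the one most like Tet3 was Nfat5 (0.0352).

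Of the readers, Mbd2 had the smallest ratio of highest to lowest library among the 9 genes, 1.27. Mbd2, which binds methylated CpG, had 61.7, 61.8, 62.2 and 69.8 CPM in the males of litters 1 to 4 and 55.2, 65.7, 62.0 and 63.6 CPM in the females. Both litter 1 values lay below the 6 others, by a narrow margin for the male, and the litter range of 0.19 (log2) did not pass (edgeR adjusted p = 0.297). Mbd3, whose product has largely lost the affinity for methylated CpG, had 76.5, 74.3, 69.0 and 89.7 CPM in males and 77.2, 82.1, 64.0 and 87.6 CPM in females. Litter 3 held its lowest 2 values and litter 4 its highest 2. Mbd3 had a litter range of 0.41 (log2, edgeR adjusted p = 0.0145), with litter 3 at -0.28 (SE 0.07, adjusted p = 0.00901) and litter 4 at 0.27 (SE 0.06, adjusted p = 0.0255). The litter test fell short without the female of litter 3 (0.0910) or the male of litter 4 (0.0503), and the litter 3 difference without the female of litter 3 (-0.21, adjusted p = 0.162). The litter 4 difference of Mbd3 lost its call without any 1 of the litter 1 or litter 4 libraries, though its size changed little. It was 0.26 without male 1, 0.27 without female 1, 0.24 without male 4 and 0.29 without female 4. With library size as the only scaling it was 0.19 and fell short (edgeR adjusted p = 0.0785). The nearest gene to Mbd3 was Anxa6 (0.0259).

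Counted by contrast, litter 3 held the most calls among the 9 genes. In litter 1, 3 genes were higher (Dnmt1, Uhrf1 and Tet1) and 0 lower, against 7.86% and 5.41% of all genes in edgeR's test. Litter 2 had 0 calls by edgeR in either direction, against 3.3% of all genes higher and 0.879% lower. At an unadjusted p under 0.05 there were 4 of 9, against 17.9% of all genes. In litter 3, 2 were higher (Tet2 and Tet3) and 3 lower (Dnmt1, Uhrf1 and Mbd3), against 13.6% and 14.8% of all genes. In litter 4, 1 was higher (Mbd3) and 3 lower (Dnmt3a, Tet1 and Tet3), against 4.71% and 5.8% of all genes. With library size as the only scaling, the calls over all genes split as 2419 higher and 1698 lower in litter 3 in place of 1871 and 2032, and as 262 and 1497 in litter 4 in place of 648 and 799. The directions of the called members were the same under that scaling.

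**Figure D4:**
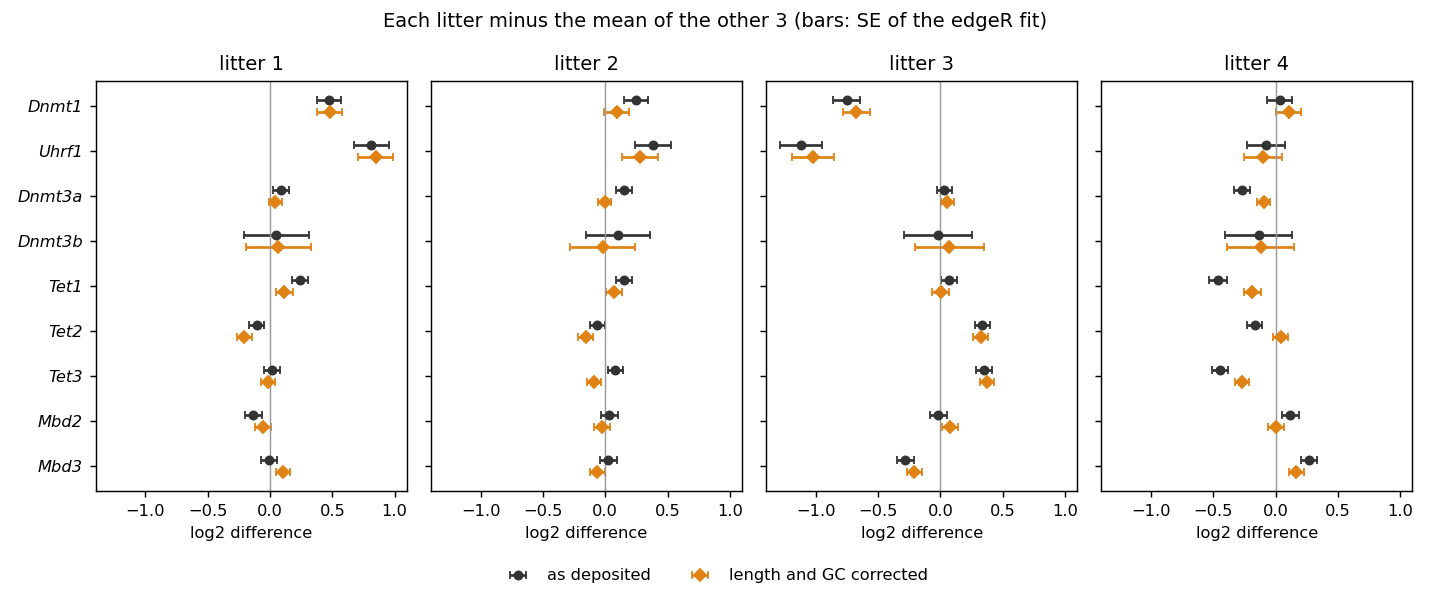
Log2 difference of each litter from the mean of the other 3 litters for the 9 genes, with SE bars from the edgeR fit, from the counts as deposited (circles) and after correction for transcript length and GC content (diamonds). The 5 called litter 3 differences keep their direction under the correction, while the litter 4 differences of Dnmt3a and Tet1 move toward 0, to -0.10 and -0.19.

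Litter differences went with transcript length, most of all in litter 4, and with GC content across the transcriptome. Across 13314 genes with a length, the litter 4 difference had a Spearman correlation of -0.384 with length, against 0.0494 to 0.191 in the other 3 litters. With GC content the correlations were -0.202, 0.160, -0.106 and 0.207 in litters 1 to 4. Genes are not independent replicates, so these are descriptions. Genes with a longest transcript over 8 kb, of which there are 769, had a litter 4 median of -0.23 (log2), and the 3074 genes under 2 kb had 0.13. The 4 members with transcripts over 8 kb (Dnmt3a, Tet1, Tet2 and Tet3) stood at -0.27, -0.46, -0.17 and -0.45 in litter 4, while Mbd2 and Mbd3, the only members under 2 kb, stood at 0.12 and 0.27. Both libraries of litter 4 showed the shift, with medians of -0.17 in its male and in its female for the genes over 8 kb. Mitochondrial transcripts took 18.5% and 15.2% of counts in these 2 libraries and 13.4% to 14.97% in the other 6. With mitochondrial genes left out and TMM redone, 7 of 9 members passed the litter test, as did 4457 genes in all (4427 with them). TMM scaling already evens out such a share, so this setting could hardly change the calls. The part of the mitochondrial share in the litter differences was not tested.

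After a trend with length and GC content was taken out of each library, a correction chosen after seeing the data, 5 of 9 genes kept a litter call, against 31.5% of all genes called by litter with that correction. Dnmt3a (range 0.11, edgeR adjusted p = 0.431) and Tet1 (0.23, adjusted p = 0.156) did not. In litter 4, where 4.59% of all genes were called after the correction, Tet3 still passed at -0.27 (SE 0.06, adjusted p = 0.0264), and Dnmt3a (-0.10, adjusted p = 0.318), Tet1 (-0.19, adjusted p = 0.140) and Mbd3 (0.17, adjusted p = 0.123) did not. All 5 litter 3 calls held, against 31.3% of all genes called, with Dnmt1 at -0.68 (adjusted p = 0.00078), Uhrf1 at -1.02 (0.000864), Tet2 at 0.32 (0.00156), Tet3 at 0.37 (0.000536) and Mbd3 at -0.21 (0.0216). In litter 1, with 13.1% of all genes called, Dnmt1 (0.48) and Uhrf1 (0.85) still passed, Tet1 did not (0.11, adjusted p = 0.282), and Tet2 passed as lower (-0.21, adjusted p = 0.0397). Set against litters 1 and 2 only, litter 3 gave the same 5 calls in the same directions (30.1% of all genes called), with Dnmt1 at -0.82 and Uhrf1 at -1.27. Litter 4 against litters 1 and 2 gave Tet1 at -0.49, Tet3 at -0.37 and Dnmt3a at -0.29, and Uhrf1 at -0.51 (edgeR adjusted p = 0.0466), with 14.3% of all genes called. Mbd3 did not pass there (0.19, edgeR adjusted p = 0.0761).

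**Figure D5:**
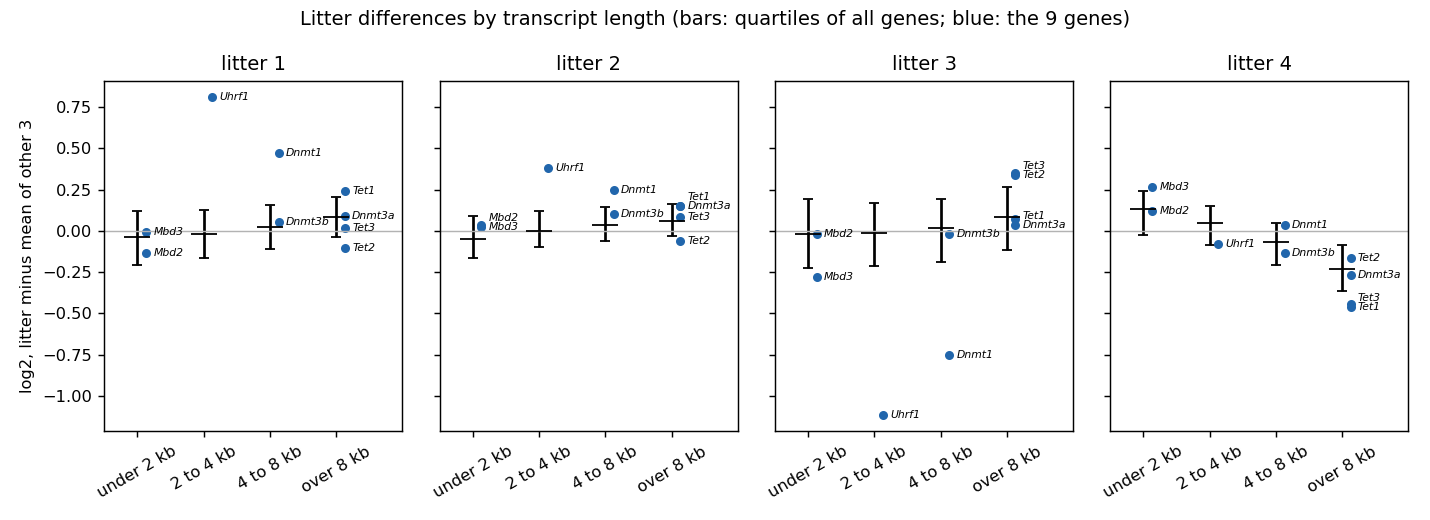
Log2 difference of each litter from the mean of the other 3 by length of the longest transcript, with the median (bar) and quartiles (whiskers) of all genes in a class and the 9 genes as points. In litter 4 the class medians fall from 0.13 under 2 kb to -0.23 over 8 kb, and Tet1 and Tet3 lie below the lower quartile of their class.

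The other genes of the pathway are read against the 32.1% of all genes that passed the litter test. Of 11 tested partners of methylation maintenance and methyl donor supply, 4 passed the litter test, with a median range of 0.28 (log2) against 0.37 for all genes. Hells, the chromatin remodeller that opens DNA for maintenance methylation, stood at 0.80 in litter 1 (SE 0.13, edgeR adjusted p = 0.00196) and -0.85 in litter 3 (SE 0.15, edgeR adjusted p = 0.00156). Cdca7, the activator of the HELLS protein, was lower in litter 3 at -0.94 (SE 0.16, edgeR adjusted p = 0.00155). Both thus had the litter 3 direction of Dnmt1 and Uhrf1. Mtr, which regenerates methionine for the methyl donor, was higher in litter 3 at 0.40 and lower in litter 4 at -0.26, and Cdca7l passed the litter test only as a whole (edgeR adjusted p = 0.0409). Uhrf2, the paralog of Uhrf1, had litter means of 37.4 to 39.2 CPM and a litter range of 0.07 (edgeR adjusted p = 0.879).

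Demethylation partners gave 5 of 14 genes past the litter test, with a median range of 0.32. Ogt, the sugar transferase that binds TET proteins, was lower in litter 4 at -0.41 (SE 0.06, edgeR adjusted p = 0.00455) and higher in litter 1 at 0.23 (edgeR adjusted p = 0.0281). Qser1, a partner of TET1, was higher in litter 3 at 0.26 and lower in litter 4 at -0.32. Gadd45b was lower in litter 1 at -0.48 (edgeR adjusted p = 0.0207), and Idh1 passed the litter test (0.0160) with no contrast of its own past the threshold. Smug1, a glycosylase, was the fifth and stood at 0.30 in litter 3.

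Of 8 other methyl-CpG readers, 4 passed, with a median range of 0.36. Mbd5 was higher in litter 3 at 0.63 (SE 0.09, edgeR adjusted p = 0.000429). Zbtb33 was higher in litter 3 at 0.36 and Zbtb38 lower in litter 4 at -0.31. Of 13 further subunits of the NuRD complex, in which MBD2 and MBD3 act, 3 passed, with a median range of 0.20. Chd3 was lower in litter 3 at -0.46 (SE 0.09, edgeR adjusted p = 0.00219), as Mbd3 was. Mta1 was higher in litter 3 at 0.27 and lower in litter 1 at -0.32, and Gatad2b was higher in litter 3 at 0.24 and lower in litter 4 at -0.26. With the correction for length and GC content, 6 of 11, 4 of 14, 2 of 8 and 4 of 13 genes of these 4 lists passed.

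Between the sexes, set at 4 hearts each by the design, none of the 9 genes differed past the threshold. By edgeR's quasi-likelihood test 0 of 9 passed, against 0.0436% of all genes. At an unadjusted p under 0.05 there were 0 of 9, against 2.22% of all genes. DESeq2 and limma-voom also called 0. Dnmt3b had the widest difference, at 2.00 ± 0.496 CPM in male and 2.81 ± 0.537 CPM in female hearts (SD, n = 4). The log2 difference, male minus female, was -0.47 (95% interval -0.999 to 0.05). Its male value was the lower one in 3 of 4 litters and the higher one in litter 1. Male hearts had 49.8 ± 13.8 and female hearts 53.9 ± 14.1 CPM of Dnmt1, a log2 difference of -0.12 (95% interval -0.62 to 0.39). For Uhrf1 the interval ran from -0.77 to 0.77, so differences of that size remain within the error. The intervals were narrowest for Mbd2 (-0.13 to 0.23) and Dnmt3a (-0.19 to 0.25).

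With the litter as a replicate block, which sets each male against its sister, 0 of 9 genes passed by edgeR, against 0.211% of all genes, and 1 had an unadjusted p under 0.05, against 11.6% of all genes. That gene was Tet2, lower in the male of 4 of 4 litters, by a log2 difference of -0.13 (SE 0.05, edgeR adjusted p = 0.381). The block narrowed the interval of Uhrf1 to -0.27 to 0.30, of Dnmt1 to -0.31 to 0.07 and of Dnmt3a to -0.09 to 0.14. In litter 2 the male was below the female in Dnmt1 and Uhrf1 by log2 differences of -0.48 and -0.56, and in litter 4 above it by 0.12 and 0.44. The 4 pathway lists held 0 genes past the threshold for sex with or without the block, as did the S phase and G2/M lists. With the block, 6 of 10 fibroblast markers were higher and 1 of 10 endothelial markers was lower in males, and their part in the sex values of the 9 genes was not tested.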

How the data were processed

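RNA was purified on columns and 1 µg of total RNA entered a stranded total RNA kit, per the labels' protocols, although the labels also give the molecule as poly(A) RNA. Reads were aligned with STAR 2.7.3a to mm10, per the submitters' processing notes. The counting program, its annotation and its strand setting are not given in the sources used here. The authors deposited raw counts per gene symbol for 8 libraries.

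Members, gene lists and tests were chosen with earlier results of these data known. All 9 members are named. Of the lists, genes past a test were named, with values for at most the 4 with the smallest adjusted p, and 3 genes nearest to each member called by litter were computed. A few further list genes (Smug1, Uhrf2, Dnmt3l, Mki67) were named after their values were seen. Values of 1 list gene are not reported here.

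Counts were analysed in R 4.3.3 with edgeR 4.0.16 (TMM, filterByExpr on sex, quasi-likelihood F test, Benjamini-Hochberg adjustment over 13771 genes, threshold 0.05). Sex was tested without a litter term (6 residual degrees of freedom), and litter with sex in the model (3). DESeq2 1.42.0, limma 3.58.1 (voom), other scalings and filters, the replicate block and left-out libraries were alternatives. Log2 CPM used a prior count of 2. SE is the log2 difference over the square root of F.

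Replicate numbers are litters in the labels and pair a male with a female. Deviations from the mean of each sex correlated at 0.367 to 0.696 within litters and -0.482 to 0.270 between them. Centring on that mean itself lowers the values between litters, so they are no separate evidence for the pairing. Chi-square per degree of freedom was 10.4 to 49.1 between libraries of a sex, so none repeated another. Lengths and overlapping genes came from GENCODE M21 on GRCm38. The overlapping genes had at most 6 counts per library, except Gm48353, which overlaps Tet1 and whose count was not matched. Length and GC content were known for 13314 genes and 9 of 9 members. Tests were checked on simulated counts.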

Additional observations from a re-analysis of the deposited data

Results flagged for a closer look

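In a group of 4 libraries, the gap of the highest or lowest to its nearest neighbour was set against the range of the group (Dixon's test at 95%). Of 60 groups, 6 passed, where chance gives about 3. Mbd2 in the male of litter 4 had 69.8 CPM, against 61.7 to 62.2 CPM in the 3 other males. The share of Tet3 in the length-scaled Tet total was 27.3% in the female of litter 4, against 29.1% to 29.3% in the 3 other females. The NuRD list summed to 1430.0 CPM in male 1 (named by litter), and the 3 other males had 1417 to 1419 CPM. In females it summed to 1496 CPM in litter 4, against 1393 to 1405 CPM. The mural marker list summed to 897 CPM in the female of litter 3, against 1393 to 1409 CPM in the other females. Of that sum, Acta2 alone had 343 CPM there and 804 to 895 CPM in the other females. Mitochondrial transcripts took 18.5% of counts in male 4, and 14.2% to 14.7% in the 3 other males. Of these 6 values, 4 come from litter 4.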

How the results depend on the processing

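Of 846 log2 values under the settings run, 70 changed sign. The 846 include litter ranges, which cannot change sign. None of the 70 was called in the main setting or where its sign changed. Among them was Tet2 in litter 4, which passed in another setting, with library size as the only scaling. The number of members called by sex was 0 in each setting, also with the replicate block. Genes called by sex over the transcriptome numbered 6, 29 with the replicate block and 27 with the block and the length and GC correction. Members called by litter numbered 7, but 3 without litter 3 (Dnmt3a, Tet1 and Tet3) and 4 without litter 4 (Dnmt1, Tet2, Tet3 and Uhrf1). Genes called by litter fell from 4427 to 1899 without litter 3. Genes differing in litter 4 numbered 1447, and 632 with the length and GC correction. For litter 2 there were 575, with 1249 under no filter (Dnmt1 and Uhrf1 then passed as higher, adjusted p = 0.036 and 0.00317) and 350.0 with a mean of at least 50 counts. Leaving out 1 library gave 359 to 1869 genes for litter 1 (1827 with all), 153 to 755 for litter 2, 1704 to 3791 for litter 3 (3903 with all) and 322 to 1302 for litter 4, and 5 to 7 members called by litter. A leave-out leaves 1 library in a litter, which is assumed to vary like the others. Of the alternatives for single genes, 809 kept their call or value, 35 lost a call, 6 gained one and 5 length-scaled levels moved. Depth limits Dnmt3b, at 31 to 66 counts. The cause of these changes was not tested.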
